A study of Mus musculus with 16 samples.

Results

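Macrophages made up most of the cells captured from these bone marrow stromal cell (BMSC) cultures. Here the macrophages of *Dmp1*KO/*Fgf23*cKO cultures were compared with those of *Dmp1*KO cultures. A cell was taken as a macrophage when, per 10000 gene UMIs (unique molecular identifiers, the count of captured RNA molecules), it held at least 80 of *Lyz2*, *Tyrobp*, *Fcer1g*, *C1qa*, *C1qb* and *C1qc* together and under 25 of the stromal and mural genes *Col1a1*, *Col1a2*, *Sparc*, *Tagln* and *Tpm2*, among cells with at least 500 genes and under 20% mitochondrial UMIs. By this rule 6795 cells were macrophages, of 8011 barcodes in the 5 cultures compared. The 15 samples of the series analysed, all but *Dmp1*KO culture 1, held 17793 barcodes, and 13823 of their cells met the same rule. The *Dmp1*KO cultures 2 and 3 gave 2584 and 2423 macrophages, and the *Dmp1*KO/*Fgf23*cKO cultures 1 to 3 gave 761, 628 and 399. *Dmp1*KO culture 1 was not analysed here.

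Both groups were *Dmp1*-/- *Fgf23* fl/fl male littermates on a C57BL/6J background, 12-week-old in the study's mouse cohort. *Dmp1*KO mice were *Dmp1*-cre negative. *Dmp1*KO/*Fgf23*cKO mice carried *Dmp1*-cre, a recombinase driven by the promoter of *Dmp1* itself, which is active in osteocytes and mature osteoblasts. Both groups therefore lack *Dmp1* in every cell, and *Fgf23* is deleted only in cells that use the *Dmp1* promoter. WT and *Fgf23*cKO cultures, which are *Dmp1*+/+, served as the reference for levels and shared the estimate of the spread. Cells were cultured for 21 days in osteoblast medium with 10 mM bGP, each culture was marked with its own CellPlex oligo, and the cultures of a genotype were pooled into a single 10x reaction. Genotype and reaction can therefore not be told apart in any comparison below, and a p value measures only the spread between cultures of one reaction. No barcode was shared by cultures of a genotype (0), and 3 were shared between the genotypes. Cells with tags of several cultures had been removed by the authors, no doublet caller was run here, and doublets within a culture remain.

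Macrophages in a stromal culture come along from the marrow and persist beside the osteoblast lineage. They clear dying cells through bridging proteins and receptors such as *Gas6* and *Mertk*, can take on a lipid-associated state marked by *Spp1*, *Gpnmb*, *Trem2* and *Lpl*, and can fuse into osteoclasts under RANKL, which turns on *Ctsk*, *Dcstamp* and *Atp6v0d2*. FGF23 is a hormone of osteocytes that acts through FGF receptors with Klotho to waste phosphate in the kidney. DMP1 is a matrix protein of osteocytes whose loss raises FGF23.

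Promoters are shown for genes picked from gene lists with a large median change, though members of a list, as in the osteoclast list of *Ctsk*, could go both ways. These were *Spp1*, *Mmp12* and *Ctsk* among those lower and *Marco*, *Vsig4* and *Nfkbia* among those higher in *Dmp1*KO/*Fgf23*cKO macrophages. They do not stand for all genes with large changes. Each runs from 250 bases before to 50 bases after the gene start, is written 5′ to 3′ on the gene's strand and is taken from RefSeq on GRCm38.p6. Capitals mark GAGGAA, the core letters bound by PU.1, the myeloid master factor, on either strand (its complement reads TTCCTC), and in *Nfkbia* they mark the letters of an NF-kB element, GGG and CC with 5 bases of any kind between them, on either strand.
*Spp1* (chr5:104434861-104435160, plus strand): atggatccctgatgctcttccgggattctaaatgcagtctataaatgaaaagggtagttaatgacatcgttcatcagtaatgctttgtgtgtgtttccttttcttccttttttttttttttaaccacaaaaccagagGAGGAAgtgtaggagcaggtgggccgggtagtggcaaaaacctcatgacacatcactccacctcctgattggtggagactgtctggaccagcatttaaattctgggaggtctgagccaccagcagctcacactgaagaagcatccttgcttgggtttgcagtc
*Mmp12* (chr9:7344147-7344446, plus strand): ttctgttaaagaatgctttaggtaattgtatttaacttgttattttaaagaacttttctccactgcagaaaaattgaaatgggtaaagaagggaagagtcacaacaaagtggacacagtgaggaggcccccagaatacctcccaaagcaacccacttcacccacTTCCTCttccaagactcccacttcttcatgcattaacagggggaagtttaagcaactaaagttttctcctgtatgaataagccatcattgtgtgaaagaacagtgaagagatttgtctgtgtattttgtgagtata
*Ctsk* (chr3:95498960-95499259, plus strand): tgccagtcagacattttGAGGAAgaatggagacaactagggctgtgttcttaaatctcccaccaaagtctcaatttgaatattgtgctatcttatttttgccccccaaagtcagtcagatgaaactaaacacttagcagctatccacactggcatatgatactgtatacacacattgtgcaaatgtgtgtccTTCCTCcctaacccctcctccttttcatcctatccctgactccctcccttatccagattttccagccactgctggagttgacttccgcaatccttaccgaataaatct
*Marco* (chr1:120504975-120505274, minus strand): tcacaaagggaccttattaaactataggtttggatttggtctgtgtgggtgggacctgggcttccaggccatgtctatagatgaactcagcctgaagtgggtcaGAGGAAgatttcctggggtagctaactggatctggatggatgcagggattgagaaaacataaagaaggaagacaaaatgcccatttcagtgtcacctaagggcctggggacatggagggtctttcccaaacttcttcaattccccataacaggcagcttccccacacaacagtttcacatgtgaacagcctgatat
*Vsig4* (chrX:96293389-96293688, minus strand): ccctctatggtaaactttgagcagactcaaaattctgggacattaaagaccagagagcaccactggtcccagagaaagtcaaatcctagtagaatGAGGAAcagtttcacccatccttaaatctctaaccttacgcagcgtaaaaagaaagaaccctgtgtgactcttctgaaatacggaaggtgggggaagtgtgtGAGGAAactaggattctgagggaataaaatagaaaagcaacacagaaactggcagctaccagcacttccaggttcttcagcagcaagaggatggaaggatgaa
*Nfkbia* (chr12:55492598-55492897, minus strand): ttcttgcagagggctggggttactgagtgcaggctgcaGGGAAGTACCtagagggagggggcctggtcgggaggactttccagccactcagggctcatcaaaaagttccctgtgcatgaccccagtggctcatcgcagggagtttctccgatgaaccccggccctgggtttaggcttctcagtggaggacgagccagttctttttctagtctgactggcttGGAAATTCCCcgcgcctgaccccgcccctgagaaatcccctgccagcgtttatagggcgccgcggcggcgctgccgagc
The PU.1 letters were found once in the *Spp1*, *Mmp12* and *Marco* promoters and at 2 places in *Ctsk* and *Vsig4*, and *Nfkbia* held none. Among other genes named below for large changes at higher levels, *Cbr2*, *Cela1*, *Dach1*, *Mfge8*, *Pdgfc* and *Samd4* held them too. Promoters of *Itgax*, *Hal*, *Tmsb10*, *Fgf13*, *Npy*, *Pcdh7*, *Gdf15*, *Tfrc*, *Trpv4*, *Dmpk*, *Rhobtb1* and *Adgb* had matches to other motifs but not to these letters. Of 27025 promoters of the same length, 28.3% held them. The share was 6 of 13 promoters of lipid-associated macrophage genes (46.2%), 4 of 11 of osteoclast genes (36.4%), 8 of 17 of scavenger and efferocytosis genes (47.1%) and 9 of 18 of inflammatory NF-kB targets (50.0%), but also 8 of 18 of G2 and mitosis genes (44.4%) and 11 of 26 of lysosomal genes (42.3%). The NF-kB letters stood in 50.4% of all promoters, in 13 of 18 of the NF-kB targets (72.2%) and in 14 of 16 of the immediate early genes (87.5%). Lists with other roles held them as often, 14 of 17 promoters of cholesterol synthesis genes (82.4%), 15 of 18 of G2 and mitosis genes (83.3%), 20 of 26 of lysosomal genes (76.9%) and 7 of 8 of heat shock genes (87.5%), so the share was not particular to NF-kB targets. These were 2 of 10 motifs counted. A match of letters is not a bound site.

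The cells were selected on their own UMIs of these 11 genes, which therefore describe the cells and were not tested. *Lyz2*, the macrophage lysozyme, stood at 20907 and 21478 CPM (UMI counts relative to the library size, scaled by TMM factors) in the *Dmp1*KO cultures and at 23959.6, 24463 and 25229 CPM in the *Dmp1*KO/*Fgf23*cKO cultures, and *C1qa* at 2993 and 3120.5 and at 3110.3, 3265 and 3279 CPM. The rule kept 95.1 and 93.4% of the filtered cells in *Dmp1*KO and 90.0, 83.5 and 84.9% in *Dmp1*KO/*Fgf23*cKO. Near its limits lay few cells, 45 and 39 in *Dmp1*KO and 3, 2 and 0 in *Dmp1*KO/*Fgf23*cKO with 80 to 100 macrophage UMIs per 10000, and 36 and 34 against 4, 2 and 2 with 60 to 80. Outside the rule, all 14 macrophage markers were tested, of which 6 were higher and 5 lower in *Dmp1*KO/*Fgf23*cKO. The CSF1 receptor *Csf1r*, which macrophages need to survive, was at 538 and 601 CPM in *Dmp1*KO and 937, 944 and 911 CPM in *Dmp1*KO/*Fgf23*cKO (log2 fold change 0.71 ± 0.07 SE), and *Adgre1*, which encodes F4/80, at 299 and 351 and 594, 601 and 584 CPM (0.87 ± 0.11). The lysosomal marker *Cd68* moved the other way, from 1028 and 942 to 740.0, 780.3 and 825 CPM (-0.33 ± 0.07), a call lost without normalization factors. The defining markers were abundant in every culture, as the rule for their sum requires.

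Depth and RNA of other cell types moved with the genotype. Cells over the mitochondrial limit made up 3.398 and 5.94% of barcodes in *Dmp1*KO and 12.2, 14.3 and 14.5% in *Dmp1*KO/*Fgf23*cKO. They made up 3.42 to 7.28% in tagged WT and 16.3 to 16.6% in tagged *Fgf23*cKO cultures. *Gm42418* took 0.101 and 0.115% of macrophage UMIs in *Dmp1*KO against 0.417, 0.461 and 0.406% in *Dmp1*KO/*Fgf23*cKO. It took 0.104 to 0.121% in tagged WT and 0.477 to 0.551% in tagged *Fgf23*cKO cultures. Both were thus higher in the genotypes that carry *Dmp1*-cre, each a single reaction, and the cause was not tested. The 5 stromal genes that the rule limits, which only describe the cells, summed to 51.4 and 46.9 against 330.1, 325.4 and 321.6 CPM. A macrophage held a median of 23189.5 and 21120.0 UMIs in *Dmp1*KO and 35677, 36009 and 36695 in *Dmp1*KO/*Fgf23*cKO, and the summed macrophage UMIs were 69160058 and 58329295 against 29342138, 23791255 and 15560769. The WT cultures used as reference were the shallowest, with medians of 7244, 7263 and 7753 UMIs. Those of *Fgf23*cKO were 36593.5, 39829 and 34557. The osteoblast marker list summed to 42.5 and 43.4 CPM against 119.6, 119.4 and 120.3 CPM, with 7 of 9 tested members higher, 1 lower and *Dmp1* at 0 in all 5 cultures. Its most abundant tested member *Ibsp*, bone sialoprotein, was at 6.68 and 7.16 against 42.7, 45.03 and 45.6 CPM in the macrophages and was 533-fold more abundant in the stromal cells. Stromal markers outside the rule summed to 50.7 and 46.5 against 78.0, 74.1 and 73.2 CPM (8 of 12 tested higher, 1 lower). Monocyte markers summed to 83.2 and 149 against 567, 516 and 499.6 plain CPM. The transglutaminase gene *F13a1*, also expressed by tissue macrophages, made up most of this. Scaled by TMM factors, which the sums are not, *F13a1* was at 96.01 and 169 against 537, 491 and 477 CPM. Of the 7 monocyte markers 3 were at 0 in all 5 cultures. Neutrophil markers summed to 30.6 and 32.6 against 16.4 to 19.8 CPM, B cell markers to 12.7 and 15.8 against 0.716 to 2.57 CPM, endothelial markers to 2.94 and 3.19 against 5.38 to 6.23 CPM, and dendritic cell markers to 0.607 to 1.85 CPM. T and NK cell, mast cell, erythroid and adipocyte markers stayed at 0.682 CPM or below in each culture and none of them passed the filter on low counts. Of the 786 genes higher by at least 2-fold, 139 (17.7%) were over 10-fold more abundant in stromal cells of the same cultures, against 69 of 903 (7.64%) of those lower by at least 2-fold and 782 (5.68%) of all genes tested. The part of stromal RNA in the differences was not tested.

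Across the transcriptome, 9125 of 13769 genes tested (66.3%) passed an adjusted p under 0.1 by edgeR's quasi-likelihood test with Benjamini-Hochberg adjustment, which gives all adjusted p values here. Of all genes tested, 3975 (28.9%) were higher and 5150 (37.4%) lower in *Dmp1*KO/*Fgf23*cKO, and 76.5% did not overlap between the cultures. Both passing and without overlap were 65.4% (28.4% higher and 37% lower). The leading genes and up to 5 members of each gene list were chosen among genes without overlap. A lack of overlap in them follows from the choice and is given below only as a description. With so large a background, a list is read from its size of change. The median log2 fold change of all genes was -0.05, the middle 90% lay between -1.2 and 1.11, and 786 genes were higher and 903 lower by at least 2-fold. A lower sum can come from fewer cells that carry a gene or from less of its RNA per cell, which summed counts cannot tell apart. Without normalization factors the median of all genes moved to 0.24, 6810.0 genes were higher and 2857 lower, and 253 genes called in both had opposite signs, so the split into higher and lower depends on the scaling and a change is read against the median of all genes. A test against a 1.5-fold limit left 2408 genes (17.5%), 940.0 higher and 1468 lower. The length of the gene in the genome moved with the difference: with the genes cut into 5 equal bins by span, the median was -0.30 in the bin of shortest and 0.19 in the bin of longest genes. Reads of long genes made up 13.8 and 14.5% of macrophage UMIs in *Dmp1*KO and 21.0, 20.9 and 20.6% in *Dmp1*KO/*Fgf23*cKO. For some lists the median is also given relative to genes of like span.

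**Figure D1:**
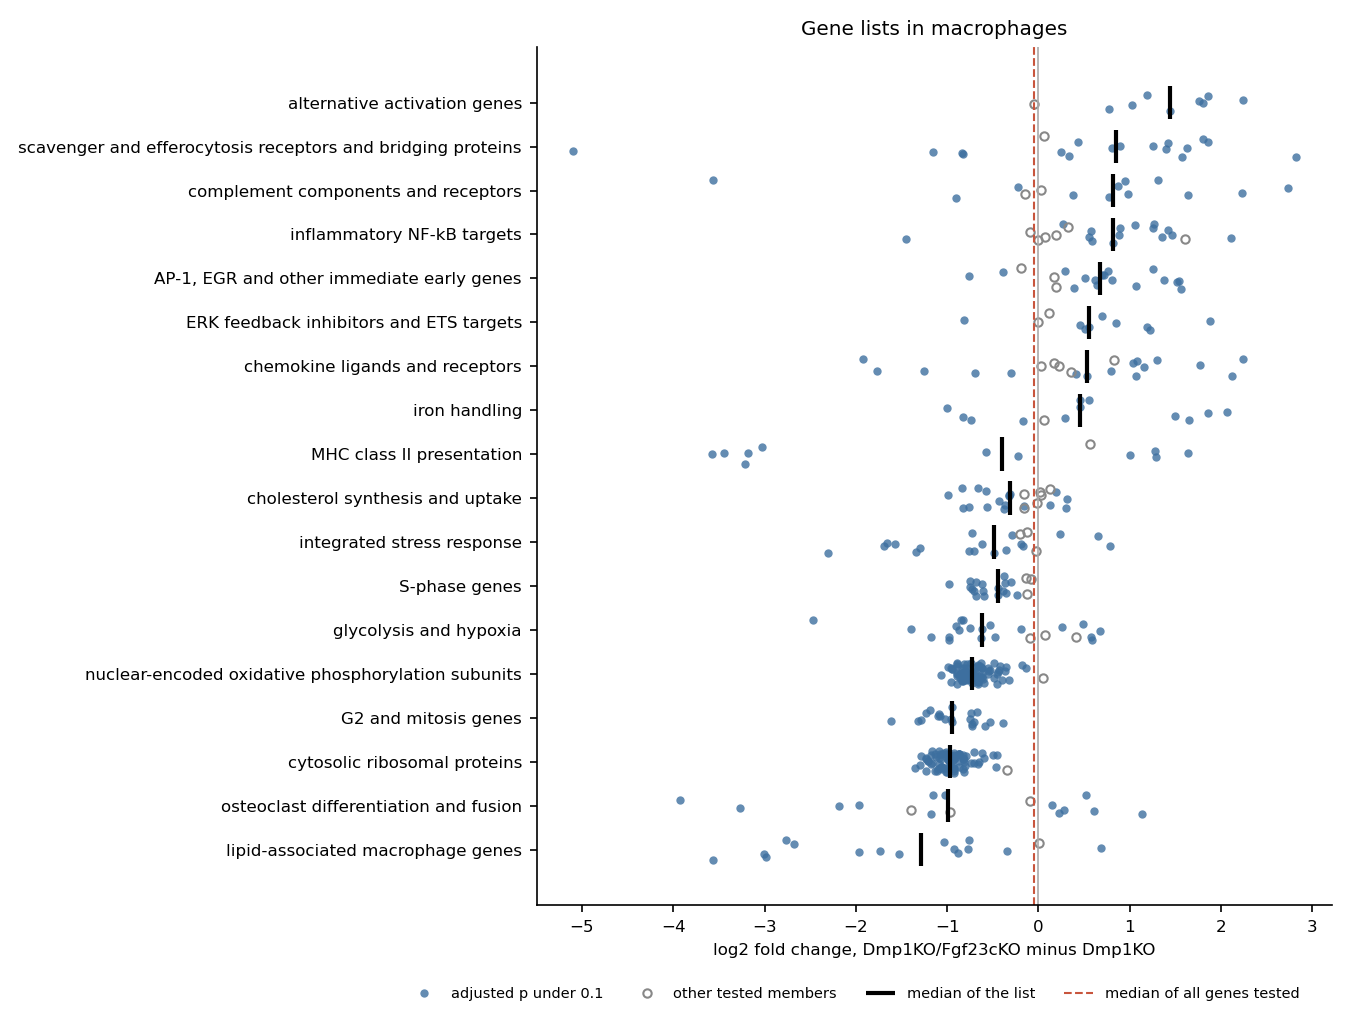
Log2 fold change (horizontal axis, *Dmp1*KO/*Fgf23*cKO minus *Dmp1*KO) of every tested member of 18 gene lists (rows) in the macrophages, with filled points for members with adjusted p under 0.1, open points for other tested members, black bars for the list medians and the dashed line for the median of all genes tested (-0.05). Alternative activation genes had the highest list median (1.44) and lipid-associated macrophage genes the lowest (-1.28), and the points of the scavenger, MHC class II and osteoclast lists fell on both sides of 0.

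Genes of the lipid-associated macrophage state were lower in *Dmp1*KO/*Fgf23*cKO. Of 16 members, all tested, 14 were lower and 1 higher, with a median log2 fold change of -1.28 against -0.05 for all genes, and 9 were lower by at least 2-fold. *Spp1* encodes osteopontin, a secreted phosphoprotein that binds integrins and mineral, and lies on chromosome 5 (104435118 to 104441050) beside *Dmp1* (104202613 to 104214102), a locus that both groups share in its deleted form. It was the most abundant of the leading genes, at 14956 and 11708 CPM in *Dmp1*KO and 1647, 1541 and 1876 CPM in *Dmp1*KO/*Fgf23*cKO. Its range in the former did not overlap that in the latter, with a 7.898-fold lower level in *Dmp1*KO/*Fgf23*cKO (log2 fold change -2.98 ± 0.11 SE, adjusted p = 3.84e-10), which left *Spp1* near its level in WT cultures (1329, 1466 and 1462 CPM).

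*Itgax*, the integrin subunit CD11c, was at 279 and 226 CPM in *Dmp1*KO and 26, 15.8 and 21.8 CPM in *Dmp1*KO/*Fgf23*cKO. The cultures did not overlap and the fitted level was 11.8-fold lower (-3.57 ± 0.19 SE, adjusted p = 9.45e-09). *Lpl*, the lipase that frees fatty acids from lipoproteins, was at 1704 and 1459 against 275, 195 and 226 CPM (-2.77 ± 0.15 SE, adjusted p = 9e-09). The fatty acid carriers fell with it, *Fabp4* from 394 and 313 to 38.1, 46.7 and 48.2 CPM (-3.005 ± 0.26 SE) and *Fabp5* from 4699 and 4124 to 1212, 1345 and 1411 CPM (-1.74 ± 0.14 SE). *Mmp12*, the macrophage elastase, was at 2688 and 2121 against 408, 376 and 339 CPM (-2.68 ± 0.20 SE, adjusted p = 1.08e-07). In each of these genes every *Dmp1*KO culture lay above every *Dmp1*KO/*Fgf23*cKO culture. Smaller decreases were measured in the galactose-binding lectin *Lgals3* (-1.96 ± 0.21 SE), the protease *Ctsl* (-1.53 ± 0.15), the tetraspanin *Cd9* (-1.03 ± 0.07), the lipid receptor *Trem2* (-0.78 ± 0.07) and the glycoprotein *Gpnmb* (-0.76 ± 0.09). The exceptions were *Apoe*, the apolipoprotein that carries cholesterol out of cells, which was higher (11634 and 12677 against 18819.8, 20588 and 19262 CPM, 0.69 ± 0.13 SE), and the lysosomal acid lipase *Lipa*, which did not pass (782 and 731 against 759, 781 and 734 CPM, adjusted p = 0.96). The list median was -0.99 without normalization factors and -1.201 relative to genes of like span.

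**Figure D2:**
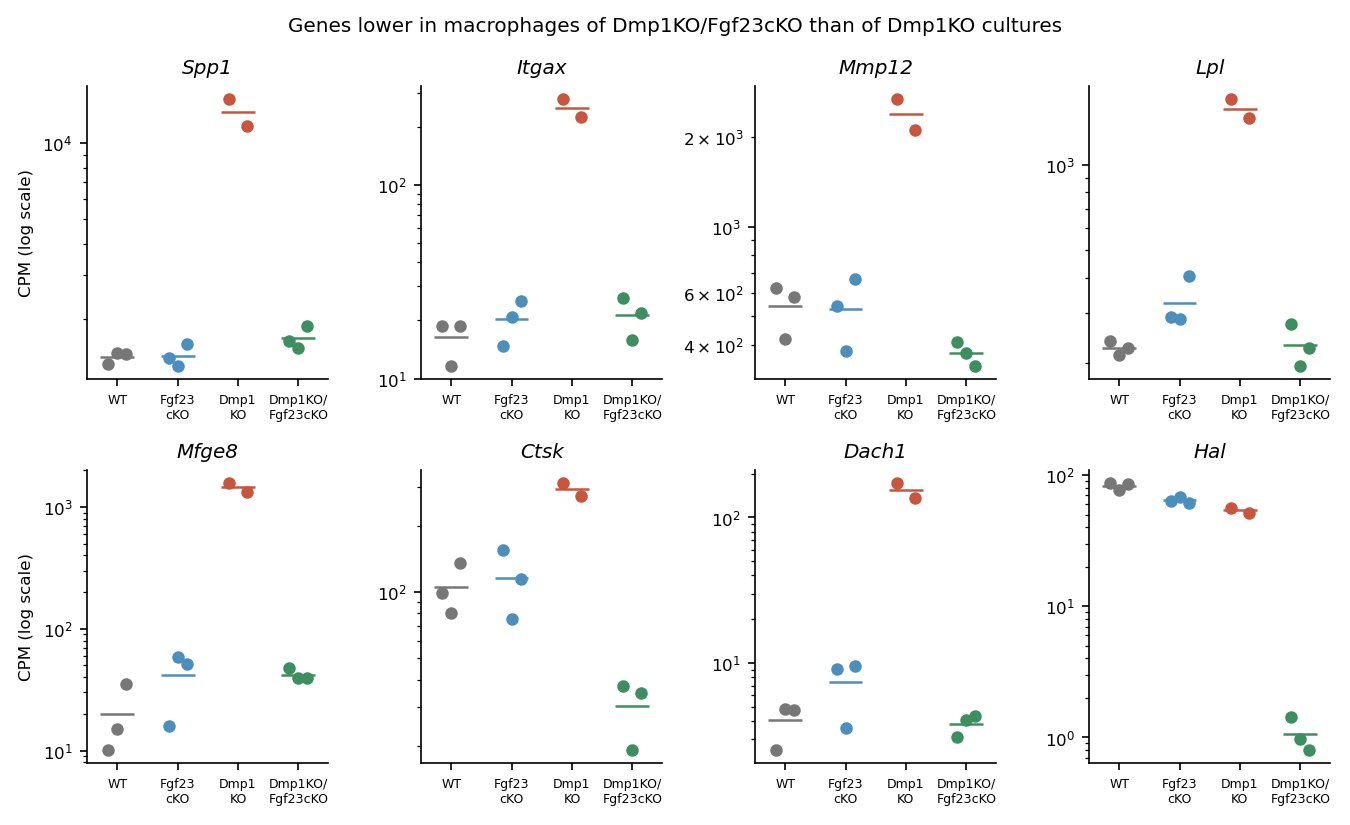
Level in CPM (log axis) of 8 genes that were lower in *Dmp1*KO/*Fgf23*cKO than in *Dmp1*KO macrophages, in the tagged cultures of the 4 genotypes, with a point for each culture and a line at the mean. In the panels of *Spp1*, *Itgax*, *Lpl*, *Mfge8* and *Dach1* the *Dmp1*KO cultures stand above the 9 others, whereas *Hal* is low in *Dmp1*KO/*Fgf23*cKO and high in the 3 other genotypes.

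Receptors that take up dying cells and modified proteins went mostly the other way. Of 18 tested members of the scavenger and efferocytosis list (21 in all), 13 were higher and 4 lower, with a median of 0.85. *Marco*, a collagen-like receptor for bacteria and particles, was at 14.4 and 14.9 CPM in *Dmp1*KO and 101.3, 84.3 and 126.1 CPM in *Dmp1*KO/*Fgf23*cKO. The cultures did not overlap and the level was 7.06-fold higher (2.82 ± 0.31 SE, adjusted p = 3.94e-06), while WT cultures were higher still (344, 455 and 500.1 CPM).

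The receptor tyrosine kinase *Mertk*, which engulfs apoptotic cells, was at 228 and 285 against 694, 712 and 652 CPM (1.42 ± 0.12 SE, adjusted p = 4.46e-07). Its ligand *Gas6*, which bridges phosphatidylserine to the receptor, was at 203 and 253 against 696, 752 and 672 CPM (1.63 ± 0.11 SE, adjusted p = 6.14e-08), and the related receptor *Axl* at 38.2 and 45.03 against 75.5, 78.3 and 63.4 CPM (0.81 ± 0.12 SE). Ligand and receptors were thus higher together, with no overlap between the groups. *Stab1*, a scavenger of matrix fragments, was 2.98-fold higher (1.57 ± 0.14 SE), the integrin subunit *Itgav* 2.38-fold (1.25 ± 0.09 SE) and the lysosomal receptor *Scarb2* 1.85-fold (0.89 ± 0.08 SE). *Msr1* and *Lrp1*, abundant uptake receptors, were higher by less (0.34 ± 0.06 and 0.25 ± 0.05 SE).

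The 4 lower members were *Mfge8*, *Cd36*, *Colec12* and *Itgb3*. *Mfge8*, the other bridging protein of this list that links dying cells to integrins, was at 1563 and 1339 CPM in *Dmp1*KO and 47.5, 39.3 and 39.5 CPM in *Dmp1*KO/*Fgf23*cKO. This was the most negative log2 fold change of any tested member of the gene lists (-5.101 ± 0.39 SE, adjusted p = 1.63e-07), 34.3-fold lower, with WT cultures at 10.1, 15.1 and 34.99 CPM. The lipid receptor *Cd36* was at 1229 and 1046 against 623, 610.0 and 671 CPM (-0.84 ± 0.07 SE), the collectin receptor *Colec12* at 354 and 338 against 188, 202 and 193 CPM (-0.83 ± 0.08 SE), and the integrin subunit *Itgb3* at 2.18 and 2.28 against 1.13, 1.09 and 0.679 CPM (-1.16 ± 0.31 SE), a call lost with macrophage marker limits of 40 and 160.

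Alternative activation genes, those that interleukin-4 and interleukin-10 raise in macrophages, were higher. Of 12 members 9 were tested, of which 8 were higher and 0 lower by edgeR (none was lower at an unadjusted p under 0.05 or by DESeq2 either), with a median of 1.44. *Mrc1*, the mannose receptor, was at 303 and 476 CPM in *Dmp1*KO and 1370.4, 1408 and 1295 CPM in *Dmp1*KO/*Fgf23*cKO, 3.48-fold higher (1.8 ± 0.16 SE, adjusted p = 6.57e-07). *Il4ra*, the receptor of interleukin-4, was at 25.8 and 30.8 against 63.6, 66.5 and 63.1 CPM (1.19 ± 0.09 SE, adjusted p = 1.34e-07), and the haemoglobin receptor *Cd163* at 0.874 and 1.29 against 3.63, 4.49 and 3.58 CPM (1.86 ± 0.22 SE). The lectin *Clec10a* (1.76 ± 0.21 SE) and the eosinophil chemokine *Ccl24* (2.24 ± 0.36 SE) were low in both groups, at 3.44 and 5.27 against 13.8, 16.9 and 13.2 CPM and 1.83 and 3.61 against 8.45, 10.5 and 20.4 CPM. The cultures did not overlap for any of these 5 genes, which was a condition of naming them. *Ccl24* depended on its *Dmp1*KO cultures, with a log2 fold change of 2.86 without *Dmp1*KO culture 3. The summed level of the list, mostly *Mrc1*, was 287 and 454 against 1552, 1579 and 1467 plain CPM, without the TMM factors that scale the *Mrc1* values above.

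**Figure D3:**
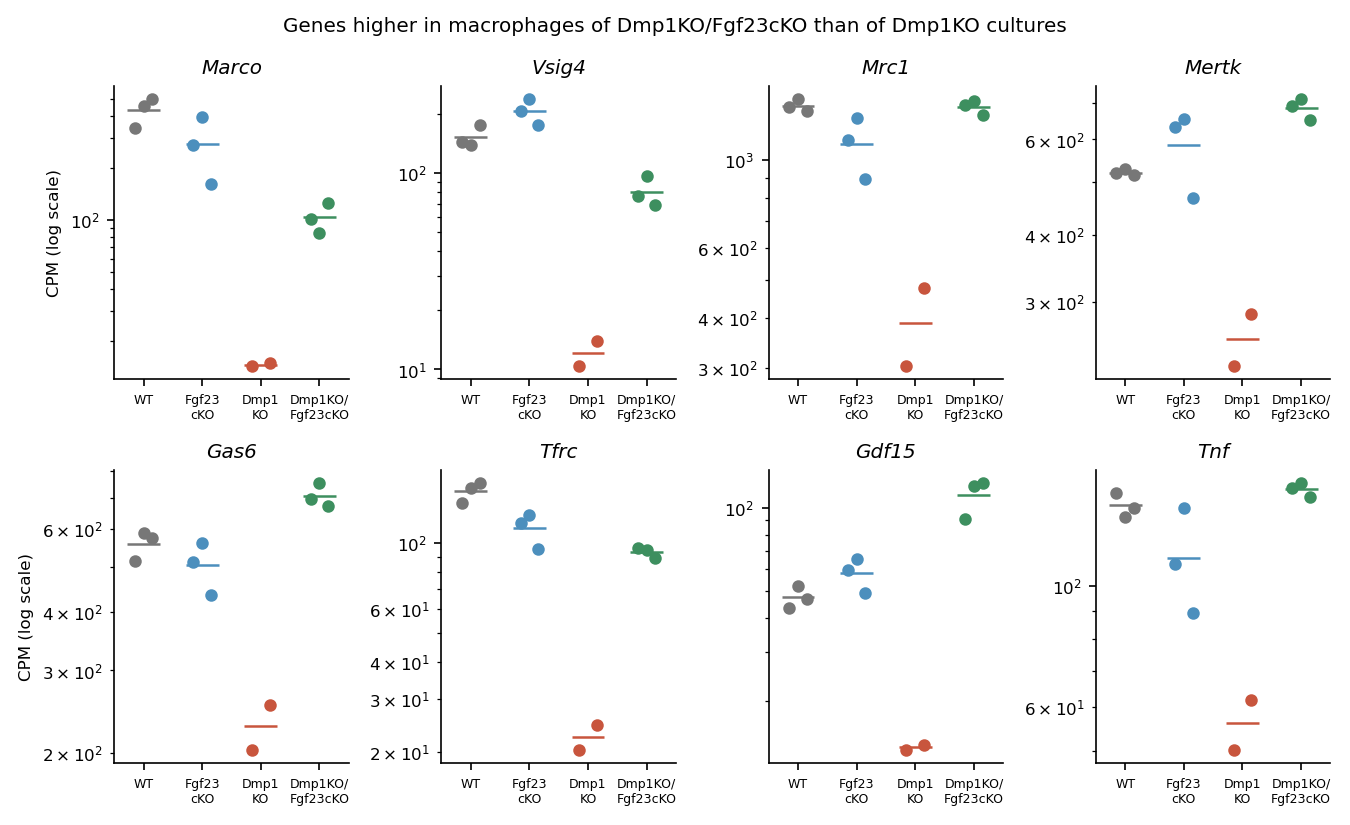
Level in CPM (log axis) of 8 genes that were higher in *Dmp1*KO/*Fgf23*cKO than in *Dmp1*KO macrophages, in the tagged cultures of the 4 genotypes, with a point for each culture and a line at the mean. The 2 *Dmp1*KO cultures are the lowest of the 11 in all 8 panels, and *Gdf15* is highest in the *Dmp1*KO/*Fgf23*cKO cultures.

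Complement genes were mostly higher. Of 14 tested members 9 were higher and 3 lower, with a median of 0.82. *Vsig4*, the complement receptor of resident macrophages, was at 10.4 and 13.9 CPM in *Dmp1*KO and 76.8, 96.6 and 68.8 CPM in *Dmp1*KO/*Fgf23*cKO, 6.67-fold higher (2.74 ± 0.18 SE, adjusted p = 3.87e-08). Properdin (*Cfp*), which stabilises the alternative pathway, was at 62.2 and 68.8 against 154, 155 and 178 CPM (1.31 ± 0.12 SE, adjusted p = 9.02e-07), and the central component *C3* at 2.79 and 4.501 against 11.9, 11.4 and 10.3 CPM (1.64 ± 0.21 SE). Each of the 3 lower members is a receptor or a receptor subunit, *Itgax* with the values above, the shared integrin chain *Itgb2* (286 and 252 against 149, 140.4 and 144 CPM, -0.8977 ± 0.06 SE) and the anaphylatoxin receptor *C3ar1* (447 and 450.2 against 372, 394 and 384 CPM, -0.23 ± 0.05 SE). *C3ar1* stood at 0.06 without normalization factors, with an adjusted p of 0.304.

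Osteoclast genes divided, with several of those for fusion and resorption lower. Of 16 tested members (18 in all) 6 were higher and 7 lower, all 7 by at least 2-fold, with a median of -0.99. *Ctsk*, the collagen-degrading protease of osteoclasts, was at 312 and 274 CPM in *Dmp1*KO and 37.3, 19.2 and 34.7 CPM in *Dmp1*KO/*Fgf23*cKO, 9.66-fold lower (-3.27 ± 0.28 SE, adjusted p = 4.33e-07). *Atp6v0d2*, the proton pump subunit needed for fusion, was at 733 and 639 against 143, 165 and 146 CPM (-2.18 ± 0.20 SE, adjusted p = 5.57e-07), and *Dcstamp*, the fusion protein, at 26.6 and 22.1 against 1.29, 1.13 and 2.78 CPM (-3.92 ± 0.49 SE, adjusted p = 1.16e-05). For all 3 genes both *Dmp1*KO cultures were above every *Dmp1*KO/*Fgf23*cKO culture.

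RANK and its nuclear factors were higher instead. *Tnfrsf11a*, the RANK receptor, was at 97.2 and 103 against 146, 144 and 139.5 CPM (0.52 ± 0.10 SE, adjusted p = 0.000348), *Nfatc1*, the master factor, at 30.2 and 32.02 against 48.2, 48.7 and 45.4 CPM (0.61 ± 0.08 SE, adjusted p = 2.88e-05) and its partner *Jdp2* at 8.21 and 8.82 against 20.8, 17.1 and 18.04 CPM (1.14 ± 0.19 SE). The kinase *Src* was lower (-1.02 ± 0.16 SE, with the call lost at an adjusted p of 0.203 with cells thinned), as were *Acp5*, which encodes the TRAP enzyme (22.8 and 29.8 against 11.4, 10.2 and 13.7 CPM, -1.18 ± 0.40 SE), and the tetraspanin-like *Tm4sf19* (-1.97 ± 0.32 SE). *Acp5* lost its call without *Dmp1*KO culture 3 (adjusted p = 0.136) and turned to 0.43 with a macrophage marker limit of 40. The gelatinase *Mmp9* did not pass (adjusted p = 0.394) at 0.24 and 5.41 CPM in *Dmp1*KO and 1.68, 1.09 and 1.42 CPM in *Dmp1*KO/*Fgf23*cKO, and its log2 fold change of -0.97 ± 0.94 SE became 2.60 without *Dmp1*KO culture 3 (adjusted p = 0.0669).

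The share of macrophages that carried osteoclast genes was counted after thinning every cell to 2000 UMIs, since the groups differed in depth. Cells with at least 3 UMIs of the 18 genes made up 33.6 and 27.9% in *Dmp1*KO and 12.2, 12.9 and 10.6% in *Dmp1*KO/*Fgf23*cKO. The means were 30.7 ± 4.04% (SD, n = 2) and 11.9 ± 1.22% (SD, n = 3), a difference of -18.8 percentage points without overlap (exact two-sided permutation p = 0.2, the smallest that 3 against 2 can give). WT cultures lay between 11 and 11.9%. The 18 genes together summed to 1144.8 and 1070.4 plain CPM in *Dmp1*KO and 568.1, 570.5 and 556.8 plain CPM in *Dmp1*KO/*Fgf23*cKO macrophages. In *Dmp1*KO *Atp6v0d2*, with the values above, made up the largest part of this sum. The share therefore weighs this gene most and does not describe the members alike. The same count was made in stromal cells of both genotypes, with the untagged samples included. Whether stromal cells express some of the 18 genes themselves was not tested. There the share was 2.31% of 216 cells in *Dmp1*KO (median 9074 UMIs) and 4.02% of 249 cells in *Dmp1*KO/*Fgf23*cKO (median 34143 UMIs). Without thinning, where deeper cells pass more often, the shares were 95.2 and 93.9% against 98.4, 97.8 and 96.5%. Too shallow to thin were 8 and 19 macrophages in *Dmp1*KO and 1 in each *Dmp1*KO/*Fgf23*cKO culture. When the cells counted here, chosen by these same genes, were left out, 7 of 14 tested members were lower and 7 higher, with a median of -0.21. With all cells thinned, 4 of 11 tested members were lower and 4 higher, with a median of -0.09.

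**Figure D4:**
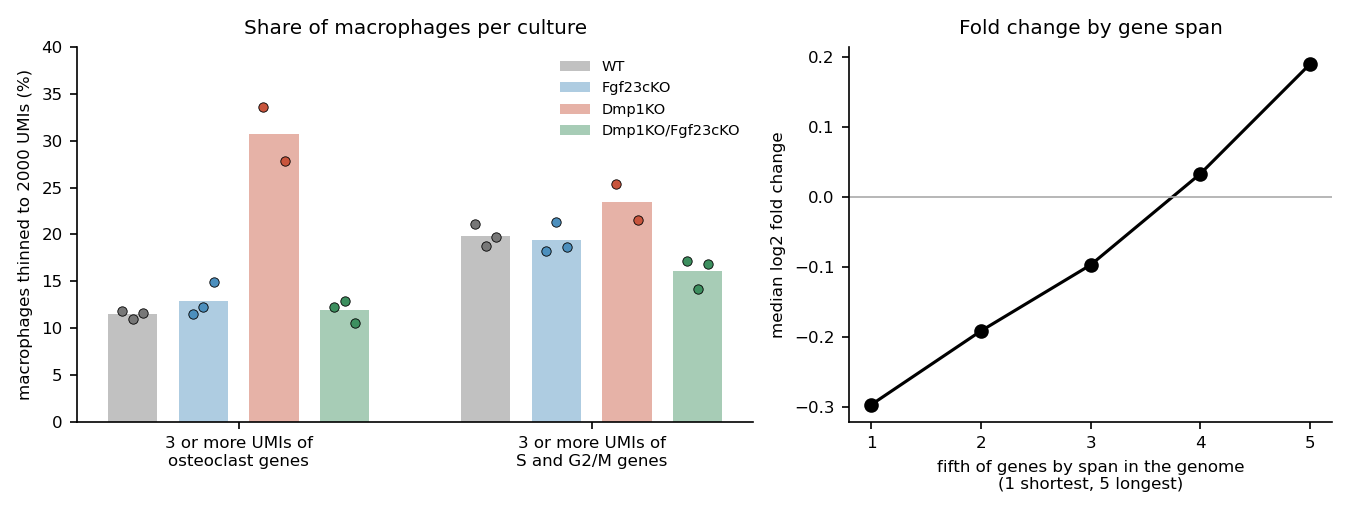
Left, share of macrophages (%, thinned to 2000 UMIs) with at least 3 UMIs of osteoclast genes or of S and G2/M genes in the tagged cultures of the 4 genotypes, with a bar at the mean and a point for each culture. Right, median log2 fold change (*Dmp1*KO/*Fgf23*cKO minus *Dmp1*KO) of the genes in each of 5 equal bins by span in the genome. The *Dmp1*KO points for osteoclast genes (27.9 and 33.6%) stand above the other cultures, and the median climbs from -0.30 to 0.19 from short to long genes.

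Antigen presentation genes divided, with most class II genes lower and the costimulatory molecules *Cd80*, *Cd86* and *Cd83* higher. These 3 were the members higher by at least 2-fold, and a further class II gene was higher by less. Of 12 tested members of the MHC class II list 7 were lower and 4 higher, with a median of -0.40, of -0.199 relative to genes of like span and of -0.68 over the 9 members tested with cells thinned. *Cd74*, the invariant chain, was at 145 and 149 CPM in *Dmp1*KO and 15.5, 18.6 and 20.4 CPM in *Dmp1*KO/*Fgf23*cKO (-3.03 ± 0.35 SE, adjusted p = 5.11e-06), and the class II chain *H2-Ab1* at 35.2 and 30.9 against 2.69, 5.42 and 2.66 CPM (-3.19 ± 0.38 SE, adjusted p = 7.97e-06). Their transcriptional activator *Ciita* was at 2.04 and 2.74 against 0.291, 0.0809 and 0.432 CPM (-3.21 ± 0.36 SE, adjusted p = 4.69e-06). The partner chains *H2-Aa* and *H2-Eb1* were lower as well (-3.45 ± 0.55 and -3.58 ± 0.47 SE), with 1 *Dmp1*KO/*Fgf23*cKO culture, number 2, above its fellows in both (1.29, 5.502 and 0.927 and 1.198, 3.28 and 1.48 CPM). Without that culture the log2 fold changes were -4.64 and -4.19. The B7 ligand *Cd80* was at 6.56 and 7.38 against 21.8, 21.9 and 21.2 CPM (1.64 ± 0.08 SE, adjusted p = 5.94e-09), *Cd86* at 129 and 173 against 378, 359 and 370.3 CPM (1.29 ± 0.19 SE) and *Cd83* at 80.3 and 91.1 against 204, 223 and 197 CPM (1.28 ± 0.09 SE). The loading factors *H2-DMb1* (-0.57 ± 0.07 SE) and *H2-DMa* (-0.22 ± 0.07 SE) changed by less than the genes above. *H2-DMa* lost its call without *Dmp1*KO culture 3 (effect -0.10) and turned to 0.07 without normalization factors.

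Inflammatory targets of NF-kB were higher. Of 21 tested members 14 were higher and 1 lower, with a median of 0.81, and their summed level was 1020.0 and 1098 CPM against 2102, 2124 and 2061 CPM. *Tnf*, the cytokine, was at 50.1 and 61.96 CPM in *Dmp1*KO and 151, 154 and 146 CPM in *Dmp1*KO/*Fgf23*cKO, 2.68-fold higher (1.42 ± 0.14 SE, adjusted p = 1.04e-06). *Nfkbia*, the inhibitor that NF-kB induces against itself, was at 147 and 153 against 311, 316 and 309 CPM (1.06 ± 0.08 SE, adjusted p = 1.68e-07). Both groups were tight in both genes, and lying apart was a condition of naming them. The adhesion molecule *Icam1* (1.35 ± 0.14 SE), the inflammasome sensor *Nlrp3* (1.27 ± 0.13), the cytokine *Il10* (1.46 ± 0.25) and the subunit *Relb* (0.88 ± 0.08) were higher too. The single lower member was *Malt1*, a signalling protease, at 112 and 89.8 against 36.9, 36.7 and 37.1 CPM (-1.45 ± 0.10 SE, adjusted p = 8.96e-08).

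Immediate early genes, which any stimulus or handling stress switches on within minutes, were higher in 15 and lower in 2 of 20, with a median of 0.67 and of 0.89 relative to genes of like span. *Fosb* was at 25.1 and 25.2 against 81.9, 69.1 and 71.7 CPM (1.56 ± 0.15 SE, adjusted p = 1.19e-06), *Klf2* at 35.6 and 44.7 against 117, 118 and 115 CPM (1.54 ± 0.11 SE, adjusted p = 1.03e-07) and *Nr4a1* at 12.9 and 18.2 against 44.4, 48.2 and 40.2 CPM (1.52 ± 0.13 SE, adjusted p = 4.26e-07). *Atf3*, a factor of the stress response, was 1 of the 2 lower members, at 502 and 465 against 274, 306 and 279 CPM (-0.76 ± 0.07 SE). The cultures did not overlap in any of the 4 genes, which were named under that condition.

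Chemokine genes went both ways. Of 21 tested ligands and receptors 11 were higher and 5 lower, with a median of 0.54, of 0.83 relative to genes of like span and of 0.17 over the 19 members tested with cells thinned. The monocyte attractants *Ccl7* (131 and 157 against 463, 506 and 502 CPM, 1.77 ± 0.11 SE, adjusted p = 3.64e-08) and *Ccl2* (1.03 ± 0.12 SE) and the receptor *Cxcr4* (37.5 and 40.1 against 86.7, 89.3 and 82.3 CPM, 1.15 ± 0.05 SE) were higher. The ligands *Ccl6* (289.8 and 275 against 87.4, 68.5 and 94.1 CPM, -1.76 ± 0.11 SE), *Ccl9* (-1.25 ± 0.10 SE) and *Cxcl14* (162 and 150.3 against 42.2, 34.02 and 48.1 CPM, -1.92 ± 0.10 SE) were lower.

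Cell cycle genes were lower. All 21 genes of G2 and mitosis were lower, with a median of -0.95, and 18 of 21 S-phase genes, with a median of -0.45, while none was higher in either list by edgeR, at an unadjusted p under 0.05 or by DESeq2. *Ube2c*, which drives exit from mitosis, was at 88.6 and 67.8 CPM in *Dmp1*KO and 26.4, 21.5 and 29.2 CPM in *Dmp1*KO/*Fgf23*cKO (-1.62 ± 0.18 SE, adjusted p = 3.81e-06), and *Birc5*, or survivin, at 97.1 and 81.2 against 42.3, 31.5 and 40.3 CPM (-1.23 ± 0.12 SE). *Pcna*, the replication clamp, was at 275 and 236 against 162, 149 and 153 CPM (-0.72 ± 0.06 SE, adjusted p = 3.79e-07). The groups did not overlap in these 3 genes, which were chosen among genes without overlap. Without normalization factors 10 of 21 S-phase genes were lower, with a median of -0.16.

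The share of thinned macrophages with at least 3 UMIs of S and G2/M genes was 25.4 and 21.5% in *Dmp1*KO and 17.1, 14.2 and 16.8% in *Dmp1*KO/*Fgf23*cKO. WT cultures stood at 21.12, 18.74 and 19.75% and *Fgf23*cKO cultures at 18.21, 21.34 and 18.63%. Every *Dmp1*KO/*Fgf23*cKO culture thus lay below every culture of the other genotypes. Means were 23.5 ± 2.74% (SD, n = 2) and 16.0 ± 1.61% (SD, n = 3), and the difference was -7.41 percentage points (exact two-sided permutation p = 0.2, the smallest possible). Stromal cells of *Dmp1*KO and *Dmp1*KO/*Fgf23*cKO, untagged samples included, gave 5.56 and 4.82%. Unthinned macrophages of the tagged cultures gave 96.0 and 94.2% against 97.8, 97.8 and 97.7%. When the cells counted here, chosen by these same genes, were left out, 16 of 21 G2 and mitosis genes were still lower, with a median of -0.86.

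Genes for making protein and ATP were lower as groups. Of 80 tested cytosolic ribosomal protein genes 79 were lower and 0 higher by edgeR, with 0 higher by DESeq2 and at an unadjusted p under 0.05, and a median of -0.97, or -0.70 relative to genes of like span and -0.68 without normalization factors. They took 14.8 and 14.6% of macrophage UMIs in *Dmp1*KO and 9.07, 9.05 and 9.19% in *Dmp1*KO/*Fgf23*cKO. *Rpl37a*, of the large subunit, was at 4013 and 3934 CPM in *Dmp1*KO and 1670.2, 1719 and 1692 CPM in *Dmp1*KO/*Fgf23*cKO (-1.23 ± 0.05 SE, adjusted p = 3.91e-10). Nuclear-encoded subunits of oxidative phosphorylation were lower in 78 of 79 tested and higher in 0 by edgeR, DESeq2 or an unadjusted p under 0.05, with a median of -0.72, and of -0.48 relative to genes of like span. The complex I subunit *Ndufa2* was at 602 and 587 against 297, 299 and 299 CPM (-0.99 ± 0.06 SE). The nuclear-encoded subunits summed to 23492.6 and 23428.8 plain CPM in *Dmp1*KO and 17202.7, 17073.8 and 17536.2 in *Dmp1*KO/*Fgf23*cKO. WT cultures stood near *Dmp1*KO, at 21965.4, 21807.5 and 23098.5, and *Fgf23*cKO cultures between 18793.2 and 20923.4. Of 13 mitochondrially encoded genes 4 were higher and 2 lower, with a median of 0.00. Without normalization factors 11 were higher and 0 lower, with a median of 0.29, and relative to genes of like span the median was 0.299.

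Glycolysis and hypoxia genes were lower in 15 and higher in 5 of 23 tested, with a median of -0.62. The glycolytic enzymes *Gapdh* (1506 and 1369 against 731, 739 and 834 CPM, -0.9045 ± 0.07 SE), *Pgam1* (-1.17 ± 0.09), *Ldha* (-0.87 ± 0.07) and *Pkm* (-0.48 ± 0.05) were lower, and the hypoxia factor *Hif1a* (0.57 ± 0.09) and the entry enzyme *Hk2* (0.49 ± 0.07) higher. Genes of the integrated stress response were lower in 15 and higher in 3 of 21, with a median of -0.49, or -0.19 relative to genes of like span. Its serine and folate enzymes led, *Psat1* at 25.1 and 20.3 against 7.09, 6.31 and 7.91 CPM (-1.69 ± 0.13 SE), *Phgdh* at 5.77 and 4.96 against 0.68, 1.29 and 1.42 CPM (-2.31 ± 0.29 SE) and *Mthfd2* at 71.4 and 58.2 against 27.2, 22.8 and 27.2 CPM (-1.34 ± 0.13 SE), whereas the cystine transporter *Slc7a11* was higher (0.66 ± 0.08 SE).

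Iron storage and iron transport genes moved apart. The ferritin chains, among the most abundant transcripts, were lower, *Fth1* at 35688 and 33301 against 17001, 17817 and 16932 CPM (-0.9998 ± 0.05 SE, adjusted p = 2.88e-09) and *Ftl1* at 28697 and 26554 against 16174, 16422 and 16984 CPM (-0.74 ± 0.06 SE). The transferrin receptor *Tfrc*, which brings iron in, was at 20.3 and 24.6 against 96.3, 94.95 and 89.4 CPM, 4.18-fold higher (2.06 ± 0.11 SE, adjusted p = 8.9e-09), and ferroportin (*Slc40a1*), which lets it out, at 79.2 and 97.95 against 262, 259.9 and 227 CPM (1.497 ± 0.12 SE, adjusted p = 2.67e-07). No culture overlapped between the groups in these 4 genes, which were chosen among genes without overlap. Of 13 iron genes tested 8 were higher and 4 lower.

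Several lists stayed near the background or depended on the scaling. Lysosomal genes (11 higher and 14 lower of 32, median -0.04) turned to 0.25 without normalization factors, MHC class I genes (3 higher and 4 lower of 10, median -0.04) to 0.25, and endoplasmic reticulum chaperones (2 higher and 7 lower of 12, median -0.28) to 0.01, which was also their median relative to genes of like span. Within the lysosomal list *Ctsh* (-1.16 ± 0.05 SE) and *Ctss* (-0.78 ± 0.05 SE) were lower. NRF2 antioxidant genes were higher in 7 and lower in 7 of 21 (median 0.05), and in 15 and 3 without normalization factors (median 0.34), with both subunits of glutamate-cysteine ligase higher (*Gclc* 1.12 ± 0.09 and *Gclm* 0.85 ± 0.07 SE) and the peroxiredoxin *Prdx1* lower (-1.21 ± 0.06 SE). Interferon-stimulated genes were higher in 9 and lower in 8 of 25 (median 0.15), and in 14 and 4 without normalization factors (median 0.44). Vacuolar ATPase subunits were lower in 12 and higher in 2 of 17 (median -0.32), and in 7 and 5 without normalization factors (median -0.03). Cholesterol synthesis genes were lower in 14 and higher in 4 of 24 (median -0.31, and -0.02 without normalization factors), with *Fdps* at -0.99 ± 0.08 SE, and efflux genes higher in 7 and lower in 5 of 13 (median 0.14), with the transporter *Abcg1* lower (-1.29 ± 0.09 SE) and the receptor-degrading ligase *Mylip* higher (0.97 ± 0.08 SE). Heat shock proteins were lower in 7 and higher in 1 of 10 (median -0.42), with a median of -0.23 relative to genes of like span. D cyclins and cell cycle inhibitors were higher in 4 and lower in 5 of 12 (median -0.05), and in 7 and 1 without normalization factors (median 0.24). Histone genes were lower in 39 and higher in 3 of 72 (median -0.38), and in 18 and 9 without normalization factors (median -0.09), with a median of -0.12 relative to genes of like span. Matrix proteases and inhibitors were higher in 8 and lower in 4 of 15 (median 0.28), and in 9 and 1 without normalization factors (median 0.57).

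The deleted genes themselves were at or near 0 in macrophages. *Dmp1* had 0 UMIs in all 5 cultures, which allows up to 3 of the smallest total of 15560769 UMIs. Both groups were *Dmp1*-/-, so this count cannot show whether macrophages with an intact gene would express it. *Fgf23* had 2 and 0 UMIs in *Dmp1*KO and 1, 0 and 0 in *Dmp1*KO/*Fgf23*cKO, too few to detect a loss or a gain. Klotho (*Kl*), the co-receptor of FGF23, had 1 UMI over all 5 cultures. Of the FGF receptors *Fgfr2* was the most abundant, at 45.8 and 46.3 CPM in *Dmp1*KO and 49.2, 46.2 and 43.3 CPM in *Dmp1*KO/*Fgf23*cKO. The groups overlapped and the difference did not pass the test (0.01 ± 0.08 SE, adjusted p = 0.93), while WT cultures held 134, 138 and 159.7 CPM. *Fgfr1* was at 9.44 and 7.22 against 2.82, 2.67 and 2.29 CPM (-1.67 ± 0.16 SE, adjusted p = 8.19e-07), but it was 63.0-fold more abundant in stromal cells and lost its call with no stromal marker limit (-0.34, adjusted p = 0.389). In all, 3 of the 8 genes for FGF receptors and klothos were tested. *Fgfr3* and *Fgfr4* had 9 UMIs or fewer in each culture.

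Feedback inhibitors and ETS factors that FGF and other receptors induce through ERK were higher in 8 and lower in 1 of 11 tested (15 in all), with a median of 0.56. *Dusp6*, the ERK phosphatase, was at 37.5 and 45.2 CPM in *Dmp1*KO and 95.2, 94.7 and 93.8 CPM in *Dmp1*KO/*Fgf23*cKO (1.19 ± 0.12 SE, adjusted p = 2.03e-06). The ETS factors *Etv1* (21.3 and 28.4 against 57.98, 58.6 and 56.9 CPM, 1.22 ± 0.13 SE) and *Etv5* (0.85 ± 0.08 SE) and the inhibitors *Spred1* (0.6962 ± 0.11 SE) and *Spred2* (0.56 ± 0.07 SE) were higher as well. WT cultures held still more *Dusp6*, 168, 177 and 180.3 CPM. The single lower member was *Phlda1* (9.06 and 9.54 against 5.21, 4.89 and 5.87 CPM, -0.81 ± 0.14 SE).

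Among genes of phosphate and vitamin D handling 5 were higher and 0 lower of 7 tested by edgeR, DESeq2 and at an unadjusted p under 0.05, with a median of 0.36. *Enpp1*, which makes the mineralization inhibitor pyrophosphate, was at 20.4 and 19.4 against 32.8, 34.1 and 33.7 CPM (0.75 ± 0.06 SE, adjusted p = 3.49e-07), the pyrophosphate exporter *Ank* at 47.4 and 55.7 against 73.6, 73.5 and 72.7 CPM (0.51 ± 0.09 SE) and the phosphate importer *Slc20a1* at 24.3 and 25.04 against 32.3, 29.5 and 32.9 CPM (0.36 ± 0.07 SE), which lost its call with cells thinned (0.11, adjusted p = 0.647). Secreted factors that act on bone cells were lower in 7 and higher in 3 of 16, with a median of -0.17 that turned to 0.12 without normalization factors. Besides *Spp1*, the lower ones included *Csf1*, the growth factor of macrophages (40.5 and 29.7 against 12.1, 13.4 and 14.1 CPM, -1.42 ± 0.20 SE), the TWEAK ligand *Tnfsf12* (-0.96 ± 0.07 SE), the osteoblast repellent *Sema4d* (-0.61 ± 0.05 SE) and *Pdgfb* (-0.57 ± 0.05 SE). The 3 higher ones were *Osm* (0.79 ± 0.11 SE, and 0.40 with the call lost at an adjusted p of 0.107 with cells thinned), *Vegfa* (0.59 ± 0.11 SE) and *Pdgfc* (25.2 and 34.5 against 125, 128 and 116 CPM, 2.04 ± 0.13 SE), the last of which was 6.85-fold more abundant in stromal cells.

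The genes with the largest changes at higher levels included several outside any list. *Hal*, histidine ammonia-lyase, which breaks down histidine, was at 56.5 and 51.6 CPM in *Dmp1*KO and 1.42, 0.971 and 0.803 CPM in *Dmp1*KO/*Fgf23*cKO, 47.9-fold lower (-5.58 ± 0.12 SE, adjusted p = 5.51e-12). WT and *Fgf23*cKO cultures, at 86.5, 77.3 and 84.9 and 63.7, 68.1 and 61.8 CPM, stood above both. *Dach1*, a transcriptional repressor, was at 172 and 135 against 3.11, 4.09 and 4.32 CPM, 40.96-fold lower (-5.36 ± 0.22 SE, adjusted p = 9.98e-10), and was at 2.53, 4.82 and 4.77 CPM in WT. Likewise lower were the actin-binding peptide *Tmsb10* (3162 and 2642 against 242, 232 and 234 CPM, -3.62 ± 0.20 SE), the protocadherin *Pcdh7* (279 and 250.2 against 24.2, 18.8 and 18.97 CPM, -3.66 ± 0.19 SE), the intracellular FGF homologue *Fgf13* (234 and 212 against 19.8, 14.1 and 22.1 CPM, -3.59 ± 0.20 SE) and neuropeptide Y (*Npy*, 418 and 365 against 30.8, 61.5 and 37.3 CPM, -3.18 ± 0.32 SE).

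Among the higher genes, *Gdf15*, a stress-induced hormone, was at 13.3 and 13.9 CPM in *Dmp1*KO and 90.7, 120.3 and 123 CPM in *Dmp1*KO/*Fgf23*cKO, 8.15-fold higher (3.03 ± 0.14 SE, adjusted p = 3.17e-09). All 3 *Dmp1*KO/*Fgf23*cKO cultures lay above WT (43.4, 52.3 and 46.8 CPM) and *Fgf23*cKO cultures (59.4, 65.4 and 49.1 CPM) too. The calcium channel *Trpv4* was at 13.9 and 17.4 against 63.3, 63.96 and 60.4 CPM (2.003 ± 0.09 SE, adjusted p = 2.76e-09), the carbonyl reductase *Cbr2* at 13.5 and 17.9 against 71.3, 85.4 and 81.5 CPM (2.34 ± 0.14 SE) and the elastase *Cela1* at 20.1 and 24.6 against 104, 107 and 104 CPM (2.23 ± 0.12 SE). The RNA-binding *Samd4* (2.71 ± 0.20 SE), the kinase *Dmpk* (2.13 ± 0.19 SE), *Adgb* (2.31 ± 0.20 SE) and *Rhobtb1* (2.01 ± 0.19 SE) were higher as well, of which *Samd4* and *Dmpk* were 3.87- and 5.58-fold more abundant in stromal cells.

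The leading genes were also set against all tagged cultures, as a description. Of the 12 leading higher genes, the *Dmp1*KO cultures were below all 9 other cultures in 12, and of the 12 leading lower genes they were above all 9 others in 11, *Hal* being the exception. The *Dmp1*KO/*Fgf23*cKO cultures lay beyond all 8 others in 5 of the 12 higher and 3 of the 12 lower genes, among them *Gdf15*, *Trpv4*, *Hal*, *Ctsk* and *Tmsb10*. These counts are no test, since the genes were chosen for a difference without overlap between 2 of the 4 genotypes and each genotype was a single reaction. Lying apart from the cultures of the other group compared was thus fixed by the choice. The same share was not counted over all genes tested. The counts therefore do not show that standing apart is particular to the leading genes.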

How the data were processed

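The deposited files are raw UMI counts per gene and cell barcode, which the authors made with Cell Ranger (7.0.1 in the matrix headers) against build mm10 per the submitters' processing notes, splitting each genotype's reaction into cultures by CellPlex tag and removing multiplets. The counting settings are not given in the sources used here. UMI counts of macrophages were summed per culture and fitted with edgeR 4.0.16 (R 4.3.3, TMM factors, filterByExpr, quasi-likelihood test, Benjamini-Hochberg, threshold 0.1) over the 11 tagged cultures of the 4 genotypes, with the contrast *Dmp1*KO/*Fgf23*cKO minus *Dmp1*KO and, for the second difference, this contrast minus *Fgf23*cKO against WT. Macrophage sums ranged from 15560769 to 69160058 UMIs in the 5 cultures compared, and from 7248397 to 16527593 in the tagged WT and *Fgf23*cKO cultures. Gene levels are CPM scaled by TMM factors, and sums over lists are plain CPM. The SE of a log2 fold change comes from the quasi-likelihood fit and includes the spread between cultures, and SDs are over cultures. The upper limit given for *Dmp1* covers counting error only. Cell shares used cells thinned to 2000 UMIs and an exact permutation test (Python 3.11.15, scipy 1.17.1, pandas 2.3.3). Of 32285 genes, 32158 were found in the annotation for spans. In data simulated for this contrast, 200 of 13780 genes were changed, in either direction. Of those changed 2-fold 83.8% were recovered and of those changed 4-fold 96.0%, and 12.8% of calls were false. The real contrast called 66.3% of genes, far more than were changed in the simulation, so these shares need not hold for it.

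Leading genes had to pass the threshold, with an average log2 CPM of at least 5 and no overlap between groups. Genes of the rule, markers of other cell types and unnamed gene models were left out. Of the rest, the 12 with the largest positive and the 12 with the largest negative log2 fold change were named. From each gene list came up to 5 members with the smallest p among those past the threshold and without overlap. Where none passed, the most abundant members were taken. FGF receptors, *Kl*, *Dmp1* and *Fgf23* were named besides. Other list members were named after their values were seen. The cells and gene lists were chosen with earlier results of these data known. Alternatives changed the factors, the filter, the tool (DESeq2 1.42.0), the threshold, the gate, the depth and the cultures used. The replicate numbers that *Dmp1*KO and *Dmp1*KO/*Fgf23*cKO share were not taken to pair cultures, and the fit has no block. Untagged cells were used only as an alternative, in the stromal cells counted for the cell shares and for the values of the untagged samples. *Dmp1*KO culture 1 was not analysed here.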

Additional observations from a re-analysis of the deposited data

Results flagged for a closer look

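The 24 leading genes had the largest changes only among genes within the limits of level, overlap and naming given above. Over all genes tested, log2 fold changes ran from -10.95 to 10.35. The 24 were listed because the effect of *Fgf23*cKO differed with the *Dmp1* genotype. The test was the interaction in the 4-genotype edgeR fit, the log2 change that comes with *Fgf23*cKO on the *Dmp1*KO background minus the change on the *Dmp1*+/+ background, and 63.3% of all genes tested passed it at an adjusted p under 0.1. Each genotype was a single 10x reaction, so that the interaction and the reactions cannot be told apart, and the genes had been chosen for the first of the 2 differences. All 24 passed it in the main fit, with the largest adjusted p for *Cd74* (0.000669). The interaction was repeated with DESeq2, other normalization factors, low-count genes kept, the replicate number as a block and single cultures left out. All 24 kept their direction in these fits, with *Cd74* between -2.788 and -1.805 on the log2 scale. It was not tested with another gate, with thinned cells, without normalization factors, against the 1.5-fold limit or with untagged cells.

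For *Spp1*, osteopontin, the second difference was -2.997 on the log2 scale (SE 0.14), with mean levels of 1419 CPM in WT and 1435 CPM in *Fgf23*cKO. For *Itgax*, CD11c, the second difference was -3.91 on the log2 scale (SE 0.31), with mean levels of 16.4 CPM in WT and 20.2 CPM in *Fgf23*cKO. For *Mfge8*, the bridging protein, the second difference was -6.11 on the log2 scale (SE 0.56), with mean levels of 20.1 CPM in WT and 42.1 CPM in *Fgf23*cKO. For *Hal*, histidine ammonia-lyase, the second difference was -5.22 on the log2 scale (SE 0.15), with mean levels of 82.9 CPM in WT and 64.5 CPM in *Fgf23*cKO. For *Marco*, the scavenger receptor, the second difference was 3.47 on the log2 scale (SE 0.39), with mean levels of 433 CPM in WT and 276 CPM in *Fgf23*cKO. For *Gdf15*, the stress hormone, the second difference was 2.75 on the log2 scale (SE 0.19), with mean levels of 47.5 CPM in WT and 58.0 CPM in *Fgf23*cKO. 

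The other positive second differences (log2) were *Adgb* (1.95), *Cbr2* (1.94), *Cela1* (2.08), *Dmpk* (1.88), *Pdgfc* (2.27), *Rhobtb1* (2.11), *Samd4* (2.74), *Tfrc* (2.48), *Trpv4* (2.41) and *Vsig4* (2.30). The other negative ones were *Cd74* (-2.50), *Ctsk* (-3.41), *Dach1* (-6.16), *Fabp4* (-3.26), *Fgf13* (-3.84), *Npy* (-4.49), *Pcdh7* (-4.75) and *Tmsb10* (-3.69).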

How the results depend on the processing

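The count of 9125 genes stayed within 1.5 times its value except under the 1.5-fold limit (2408, with 940.0 higher and 1468 lower) and with cells thinned to 2000 UMIs (4334, with 1892 higher and 2442 lower, of fewer genes tested), and without normalization factors the split was 6810.0 higher and 2857 lower. Leaving out a culture gave 7448 to 8747 genes in all, 3608 to 4058 higher and 3768 to 4965 lower, and 7712 to 8772 for the second difference. With the replicate number as a block 8753 and 8512 genes passed. Deviations of same-numbered cultures correlated at -0.41 and -0.45 between the groups compared, but at 0.22, 0.355 and 0.458 between *Fgf23*cKO and *Dmp1*KO/*Fgf23*cKO, so a pairing was not shown over all genotypes. Without genes over 10 times as abundant in stromal cells, an alternative chosen after seeing the data, 8771 passed (3749 higher and 5022 lower).

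Cell shares reversed without thinning, where depth sets the share, to 2.66 percentage points for S and G2/M genes and 3.04 for osteoclast genes. Leaving out a culture moved the thinned differences between -9.35 and -5.47 and between -21.7 and -16.0.

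Of 3645 log2 fold changes of 166 genes under the alternatives, 3576 kept their direction and side of the threshold, 44 lost and 5 gained the call, and 20 changed sign, where the cause was not tested. *Fgfr2*, not called, turned to -0.00273 with the replicate block, -0.0606 without the filter on low counts, -0.016 with untagged cells as replicates, -0.00676 with a marker limit of 40, -0.0937 thinned, -0.0978 without cycling cells and -0.0437 without *Dmp1*KO/*Fgf23*cKO culture 1, in a range of -0.0437 to 0.0857 over cultures left out. *Lipa*, not called, turned to -0.06803 without that filter, -0.0349 with no stromal limit, -0.0222 without cycling cells, and -0.00121 and -0.0203 without *Dmp1*KO/*Fgf23*cKO culture 1 or 2, in a range of -0.0203 to 0.11 over cultures left out. *H2-DMa* turned to 0.068 and *C3ar1* to 0.061 without normalization factors, and *Acp5* to 0.43 with a marker limit of 40. *Mmp9* turned to 2.94 and 1.89 with marker limits of 40 and 160, 2.09 with at least 1000 genes and under 10% mitochondrial UMIs, 1.79 without osteoclast gene positive cells and 2.595 without *Dmp1*KO culture 3, in a range of -1.88 to 2.595 over cultures left out.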

Other observations

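Each genotype had a further sample of cells without a culture tag. These cells came from the same 10x reactions as the tagged cultures and are not independent of them. The rule found 503 macrophages among the *Dmp1*KO cells and 137 among those of *Dmp1*KO/*Fgf23*cKO. In this order and in plain CPM, *Spp1* was at 11050 and 1368, *Mfge8* at 1342 and 24.4, *Hal* at 43.5 and 0.249, *Marco* at 17.5 and 75.1, and *Gdf15* at 9.12 and 114.6 in these 2 samples. All 24 leading genes lay on the same side as in the tagged cultures. Deep enough to thin were 453 and 112 of these macrophages, and 50 and 25 were too shallow. Among the thinned cells, the share with at least 3 osteoclast UMIs was 30.9 and 8.93%, and that with at least 3 S and G2/M UMIs 26.3 and 8.93%.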
